A study of Rattus norvegicus with 12 samples.

Results

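The array used in this study carries 5519 non-control probes whose design name begins with ASRNV, out of 38804 non-control probes in all (14.2%). They were selected by that name alone, with no use of their measured values, and all 5519 are also in the deposited value table. Each of them is printed as 1 spot. The sources used here do not say what the prefix stands for, and the files give each of the 5519 probes its own design name in place of a gene or transcript, so their targets and sequences are not given here. Results are therefore described by probe.

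RNA from synovial tissue, the lining of the joint, was measured in male rats of 3 groups with 4 arrays each. Control is tissue of normal rats, CIA is tissue of rats with collagen-induced arthritis, and BZXD is tissue of rats with collagen-induced arthritis that were treated with Bi Zhong Xiao Decoction, a herbal preparation. The labels and the series text name no strain, age, dose or duration. The comparisons address what differed in arthritic synovium and what differed after the decoction, for messenger RNAs and long non-coding RNAs together.

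Collagen-induced arthritis is a model in which immunisation with collagen leads to an inflamed, thickened synovium, where fibroblast-like cells of the lining and infiltrating immune cells lie together. An expression array reads each transcript through a short immobilised DNA probe, to which labelled RNA copies bind, and the brightness of the spot rises with the amount of bound RNA. Long non-coding RNAs are transcripts without a protein product, many of them of low abundance, so a large share of the probes on such arrays lies near the background. In a piece of tissue, fewer cells of a type and less RNA per cell cannot be told apart. Of 20 marker genes listed for the cell types of synovium, 0 had a probe with a usable gene name, so the tissue could not be checked against its markers.

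For comparison, each ASRNV probe was paired with 1 probe of the most common design name, ASRN followed by digits and AP, of which the array has 28287. Pairs were chosen for the nearest mean level over the 4 Control arrays, and their levels there differed by a median of 0.00013 and at most 0.052 on the log2 scale. The likeness of the paired sets in Control is thus fixed by the choice of pairs, and only the CIA and BZXD arrays can show where they part.

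The 4 arrays of a group shared 1 scan, and no scan held arrays of 2 groups, so scan and group cannot be told apart. The BZXD arrays were dimmer over the whole array. The 75th percentile of intensity over all non-control probes, to which every level below is scaled, was 54.3 to 69.6 for Control, 91.1 to 118 for CIA and 24.7 to 32.7 for BZXD arrays. BZXD replicate 2 stood apart from the other BZXD arrays. Over the 1239 ASRNV probes that were well above background on all 12 arrays, its log2 levels correlated at 0.828 to 0.839 with the other BZXD arrays, while BZXD pairs without it reached 0.989. The main detection shares, counts of calls and median differences of BZXD and CIA are given with and without this array. Other results on BZXD, such as those by band of Control level, are given only with it. No ASRNV spot was saturated on any array. The series text speaks of 4 normal and 4 arthritic rats and gives no number of treated rats, and beyond this nothing says how the samples of a group were obtained. The p-values then reflect only how far these samples spread, which may be technical.

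ASRNV probes were detected about as often in arthritic as in normal synovium and far less often in the decoction group. Here detected means that the scanner software marked the spot as well above background. In Control, 56.8%, 72.0%, 68.0% and 71.0% of the measured ASRNV probes were detected on replicates 1 to 4, with a mean of 66.9% ± 7.01 (SD, n = 4). In CIA the shares were 65.5%, 76.3%, 61.9% and 77.1%, with a mean of 70.2% ± 7.64 (SD, n = 4). On BZXD arrays they were 30.6%, 33.9%, 39.6% and 36.3%, with a mean of 35.1% ± 3.79 (SD, n = 4). The Control and CIA arrays overlapped, and every BZXD array lay below every array of the other groups. The BZXD mean was 35.5% without replicate 2. The same flag on all non-control probes gave 73.8% ± 5.97 for Control, 76.0% ± 6.32 for CIA and 50.2% ± 4.46 for BZXD arrays (SD, n = 4 each), so the BZXD arrays were lower for the whole array as well.

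Against AP probes of equal Control level, ASRNV probes lost more detection on the BZXD arrays. The paired AP probes were detected at 67.0% ± 7.36 for Control, 69.7% ± 7.85 for CIA and 48.9% ± 5.08 for BZXD (SD, n = 4 each). On the 4 CIA arrays the ASRNV share lay 0.83, 0.11, 0.58 and 0.46 percentage points above that of the paired probes, a mean of 0.49 ± 0.30 (SD, n = 4). That sign depended on the pairs, and with pairs matched on Control replicates 1 and 2 alone the CIA mean was -0.39, with all 4 arrays between -0.91 and -0.02. On the 4 BZXD arrays the difference, ASRNV minus paired AP, was -11.3, -19.5, -12.2 and -12.4 percentage points, a mean of -13.8 ± 3.79 (SD, n = 4). All 4 BZXD differences were negative, and the array farthest from the rest was replicate 2. Without that array the mean was -11.9 ± 0.60 (SD, n = 3). The size of the gap depended on how pairs were chosen, and it was -7.76 points when pairs were matched on the mean over all 12 arrays. Over all AP probes the BZXD mean was 55.1%, above the 50.2% of all non-control probes, so designs other than AP lay lower there. Probes that are neither ASRNV nor AP were not matched on Control level. The larger loss is therefore not shown to be particular to ASRNV.

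The gap was present at every Control level. ASRNV probes were divided into 4 bands of equal number by Control level, with edges at -4.06, -2.52 and -0.60 on the scaled log2 axis, on which 0 is the array's 75th percentile. In the lowest band, 7.19% ± 1.94 of the ASRNV probes and 27.3% ± 6.88 of the paired AP probes were detected on the BZXD arrays (SD, n = 4). The next band had 12.4% ± 3.27 of ASRNV and 28.8% ± 4.99 of paired AP probes detected there (SD, n = 4). In the third, 35.6% ± 7.40 of ASRNV and 49.1% ± 7.64 of paired AP probes were detected (SD, n = 4). In the brightest band the shares were 86.6% ± 3.23 and 91.5% ± 2.91 (SD, n = 4). The gap was thus narrowest among the brightest probes, and widest in the lowest band, where the ASRNV probes were mostly undetected in Control too.

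Probe by probe, many ASRNV signals that were steady in Control and CIA were not detected in BZXD, and few appeared there. These counts are over the 5311 ASRNV and 5242 paired AP probes with a usable spot on all 12 arrays, since a spot marked as an outlier has no value. Of 2795 such ASRNV probes detected on all 8 Control and CIA arrays, 1239 (44.3%) were detected on all 4 BZXD arrays, 692 (24.8%) on some and 864 (30.9%) on none. Of 2751 such paired AP probes, 1467 (53.3%) were detected on all 4 BZXD arrays and 599 (21.8%) on none. Over all non-control probes, 54.0% of 22625 were detected on all 4 and 21.9% on none. Leaving out BZXD replicate 2, 974 ASRNV probes (34.8%) and 748 paired AP probes (27.2%) were detected on none of the other BZXD arrays. Over all non-control probes it was 26.7%.

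In the opposite direction the counts lay further apart. Of 942 ASRNV probes detected on none of the 8 Control and CIA arrays, 16 (1.70%) were detected on all 4 BZXD arrays. Among paired AP probes it was 158 of 962 (16.4%), and among all non-control probes 585 of 5311. Of those 585, 546 were AP probes, out of 3467 AP probes detected on none of the 8 (15.7%). Gained probes were thus also scarce among probes that are neither ASRNV nor AP, and this scarcity was not particular to ASRNV. Without BZXD replicate 2, 26 ASRNV probes (2.76%) and 161 paired AP probes (16.7%) met the same description, against 11.5% over all non-control probes. No test was made of these differences between the sets.

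The 16 gained probes were near the background in the other groups. Their median scaled level was -5.15 in Control and -5.39 in CIA, both among values too dim to be ordered, and -0.07 in BZXD, where their median intensity was 27.6. The 864 probes detected on no BZXD array were mostly dim to begin with. Their median scaled level was -2.03 in Control and -2.06 in CIA, their 90th percentile in Control was -0.63, and the brightest reached 3.07 there. In BZXD their median intensity was 1.55, against 15.6 in Control and 25.4 in CIA. Between Control and CIA almost no probe changed detection completely: 5 ASRNV probes were detected on all 4 CIA and on 0 Control arrays, and 0 on all 4 Control and no CIA array. On no array of the 12 were 849 of the 5311 ASRNV probes detected, against 598 of the 5242 paired AP probes.

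The ASRNV distribution was dim in all groups and stretched in BZXD. The median scaled level was -2.50 ± 0.04 in Control and -2.61 ± 0.06 in CIA (SD, n = 4 each). It was -3.80 ± 0.22 in BZXD (SD, n = 4), and -3.69 without replicate 2. On the BZXD arrays the dimmest detected spot lay between -2.95 and -2.66, so the BZXD median is the level of an undetected probe and gives only an upper bound. The paired AP probes had medians of -2.65 ± 0.04 on CIA and -2.51 ± 0.10 on BZXD arrays (SD, n = 4 each). Their BZXD median lies at the detection limit too, and their differences from CIA ran both ways, with a 10th percentile of -1.98 and a 90th of 3.57.

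The upper end of the ASRNV distribution moved the other way, as did that of the whole array. Over all non-control probes the 99th percentile was 6.81 for Control, 7.12 for CIA and 8.70 for BZXD. The ASRNV 99th percentile was 5.55 ± 0.23 for Control, 5.80 ± 0.15 for CIA and 7.58 ± 0.29 for BZXD (SD, n = 4 each), and the paired AP probes reached 7.82 ± 0.22 in BZXD. Between 14 and 31 ASRNV probes per Control array, 19 and 30 per CIA array, and 57 and 84 per BZXD array lay more than 7 log2 units above the 75th percentile. For the paired AP probes it was 13 to 27, 18 to 31 and 69 to 113. In raw intensity the 99th percentile was 3059 ± 745 for Control, 5899 ± 571 for CIA and 5535 ± 498 for BZXD (SD, n = 4 each), while the median was 11.3, 17.5 and 2.10. The upper tail of the BZXD arrays thus had an intensity like that of CIA, with the lower part of the distribution near the background. Of the 4 ASRNV probes with a Control mean above 9, a choice made after their values were seen, 2 were at 10.4 and 9.22 in Control, at 10.1 and 8.83 in CIA and at 9.91 and 8.58 in BZXD. The other 2 were at 10.3 and 9.52 in Control, at 9.91 and 9.41 in CIA and at 7.12 and 6.87 in BZXD, lower than in CIA with adjusted p of 0.00420 and 0.0131 (limma). The first of these had a usable spot on 3 of the 4 BZXD arrays. For the second, the BZXD arrays (5.01 to 7.98) and the CIA arrays (7.80 to 10.3) overlapped. The probes at 10.4 and 9.22 in Control were lower than that in CIA (adjusted p = 0.0479 and 0.0313, limma). They were also lower than Control in BZXD (adjusted p = 0.0476 and 0.0177, limma). Between BZXD and CIA they did not pass the threshold (adjusted p = 0.511 and 0.292, limma).

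Replicates agreed closely in Control and CIA and less so in BZXD. Among the 1239 ASRNV probes detected on all 12 arrays, the SD of log2 level between the 4 arrays had a median of 0.144 for Control, 0.176 for CIA and 0.453 for BZXD. Leaving out BZXD replicate 2 gave 0.225. The 1467 paired AP probes detected on all 12 arrays had 0.133, 0.157 and 0.444, and 0.199 without BZXD replicate 2. Over the 5311 ASRNV probes with a value on every array, dim ones included, the medians were 0.246, 0.274 and 0.493. The paired sets therefore had a similar replicate spread, and the detected probes spread less in BZXD once that array was left out, though still more than in Control and CIA. The order of the groups turned under normexp correction with an offset of 50. There the median SD over the 5311 probes was 0.081 for Control, 0.111 for CIA and 0.079 for BZXD.

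The order of the ASRNV levels was shared by Control and CIA. Over the 1239 probes, log2 levels correlated at 0.980 to 0.997 between Control arrays and at 0.951 to 0.989 between a Control and a CIA array. Between a BZXD array and a Control array r was 0.655 to 0.724, and between a BZXD and a CIA array it was 0.654 to 0.719. These are descriptions over probes that share their array, labelling and slide. All BZXD arrays, replicate 2 included, stood that far from the other groups.

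Differences between CIA and Control were few at the main settings, and most were small. Of the 3989 ASRNV probes (72.3%) detected on 4 or more of the 12 arrays, 370 passed limma's test at an adjusted p under 0.05, with 122 higher and 248 lower in CIA. That is 9.28%, against 9.37% of all 31288 tested probes and 399 of 4262 paired AP probes. Higher in CIA were 3.06% of the tested ASRNV probes, against 2.29% over all tested probes, and lower were 6.22%, against 7.08%. The groups did not overlap for 779 ASRNV probes (19.5%), against 20.8% over all tested probes. The share of ASRNV probes called was close to that of the array as a whole.

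The CIA calls were sensitive to single arrays, to the fit and to the background correction. With normexp correction 2324 ASRNV probes were called, and 18028 probes over the whole array. The count was 180, 59, 75 and 7 without Control replicates 1 to 4, and 106, 147, 249 and 237 without CIA replicates 1 to 4. Over the whole array these fits called 1490, 499, 596 and 66 probes, and 823, 1089, 1796 and 1845, so the array moved likewise. A single limma fit of all 12 arrays, with 1 spread for all groups, called 0 ASRNV probes, with 504 at an unadjusted p under 0.05, and 90 when BZXD replicate 2 was left out of that fit. Over the whole array the same fits called 4 and 733 probes. At an adjusted p under 0.01 the 8-array fit called 8 ASRNV probes, and 74 probes over the whole array. The split of the calls into higher and lower also moved with the scaling: 33.0% of calls were higher in CIA here, 51.5% after quantile normalization, 67.3% after scaling to the median, 14.6% after normexp background correction and 45.8% in the deposited value table. Over all called probes these shares were 24.4%, 39.1%, 59.6%, 13.5% and 32.3%, in the same order.

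Most CIA differences were small in size. The median difference, CIA minus Control, was -0.09 over all 5519 ASRNV probes, -0.16 over the paired AP probes and -0.12 over all probes. Over the 1239 ASRNV probes detected on all 12 arrays it was 0.06, against -0.04 for the paired AP probes detected everywhere. Among the called ASRNV probes, 24 were higher and 27 lower by more than 1 log2 unit, 3 were higher by more than 2, and 0 differed by more than 4. Past 1 log2 unit these are 0.60% higher and 0.68% lower of the tested ASRNV probes, against 0.64% and 0.70% of all tested probes. The median over all members turned to 0.02 under quantile normalization and to 0.03 under scaling to the median.

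The largest rise in CIA with detection on all 8 arrays was that of probe ASRNV20032945V3. Its scaled log2 level was -1.19, -1.28, -1.45 and -1.45 in Control replicates 1 to 4 and 2.32, 1.36, 0.62 and 2.03 in CIA replicates 1 to 4. In BZXD it was -0.90, 0.32, -0.60 and -1.77. Every CIA array was above every Control and every BZXD array. The difference, CIA minus Control, was 2.92 ± 0.34 (SE), 7.58-fold, with an adjusted p of 0.00992 (limma, 4 arrays against 4). The call held in 7 of 8 limma fits that left out an array and was lost without Control replicate 4 (adjusted p = 0.0520) and in the 12-array fit (adjusted p = 0.0610). In BZXD the probe was lower than in CIA by 2.32 ± 0.50 (SE; adjusted p = 0.00315, limma), and its difference from Control was 0.60 ± 0.39 (SE; adjusted p = 0.196, limma).

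Probe ASRNV20029936V3 was second. Its scaled log2 level was -1.54, -1.21, -0.92 and -1.25 in Control and 1.66, 0.31, 0.07 and 1.37 in CIA. In BZXD it was -4.23, -0.27, -4.11 and -4.53, with detection only on replicate 2. The Control and CIA arrays did not overlap, and CIA was higher by 2.09 ± 0.36 (SE), 4.25-fold, with an adjusted p of 0.0225 (limma). The call was lost without Control replicate 2 (adjusted p = 0.0555) and without Control replicate 4 (adjusted p = 0.0738) in the same limma test, and in the 12-array fit (adjusted p = 0.347).

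The largest falls in CIA were ASRNV20027814V3 and ASRNV20027382V3. The first had scaled levels of 0.26, 0.73, 1.37 and 1.08 in Control and of 0.22, -0.61, -1.60 and -1.48 in CIA, and the highest CIA array came close to the lowest Control array. The difference was -1.73 ± 0.42 (SE; adjusted p = 0.0442, limma), and it passed the threshold in 1 of 8 fits that left out an array, with adjusted p up to 0.116. The second had 0.64, 1.26, 1.83 and 1.26 in Control and 0.37, -0.89, -0.68 and -0.12 in CIA. Its difference was -1.58 ± 0.33 (SE; adjusted p = 0.0313, limma), and it passed in 2 of 8 such fits.

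Neither of these probes was detected on a BZXD array. ASRNV20027814V3 was at -3.01, -5.07, -5.12 and -4.87 in BZXD, and ASRNV20027382V3 at -3.52, -4.69, -2.94 and -3.59. Against the mean dimmest detected level of those arrays, CIA was 3.82-fold higher for the first probe and 5.52-fold for the second. Some undetected spots were brighter than that level, up to an intensity of 8.95 on BZXD replicate 1, so the folds are not strict bounds. Control was 12.6-fold and 16.5-fold above the same dimmest detected level, in the same order. The limma adjusted p against CIA was 0.000508 for the first and 0.000127 for the second. The scanner software marked neither as well above background in BZXD, although ASRNV20027382V3 on replicate 3 was as bright as the dimmest detected spot of that array.

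Most ASRNV probes differed between BZXD and CIA, and most of them were lower in BZXD. Of 3978 tested ASRNV probes, 2800 passed limma's test, 548 higher and 2252 lower in BZXD. That is 70.4%, against 69.9% of all 31247 tested probes, so the share called was near that of the whole array. The direction differed: 13.8% of tested ASRNV probes were higher, against 25.5% over all tested probes, and 56.6% were lower, against 44.4%. Of those 31247 probes, 7971 were higher and 13872 lower. AP probes were 23616 of them, with 6778 higher (28.7%) and 9696 lower (41.1%), so the array share is mostly an AP share. By these counts, probes that are neither ASRNV nor AP were also lower more often than higher. The direction was therefore not particular to ASRNV. The paired AP probes gave 1289 higher and 1683 lower of 4257 tested. The groups did not overlap for 2496 ASRNV probes (62.7%), against 62.0% over all tested probes. Because a probe could pass the filter on its Control and CIA arrays alone, a fall in BZXD is built into part of this set.

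Among the 1239 ASRNV probes detected on all 12 arrays, where every value is above background, 325 were higher and 520 lower in BZXD than in CIA. The 1467 paired AP probes detected everywhere gave 560 higher and 441 lower, and all 12220 probes detected everywhere gave 4431 higher (36.3%) and 3842 lower (31.4%), against 26.2% and 42.0% of the ASRNV probes. Of the called probes, 38.5% of ASRNV and 55.9% of paired AP probes were higher in BZXD. Without BZXD replicate 2 the counts were 426 higher and 572 lower for ASRNV and 662 higher and 499 lower for the paired AP probes. All 12220 probes detected everywhere then gave 5362 higher and 4368 lower. Over all tested ASRNV probes the counts were then 759 higher and 2346 lower of 3976, against 9509 and 15010 of all 31236 tested probes. In both cases more ASRNV probes were lower than higher, and more of the detected paired AP probes were higher than lower.

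The direction over all tested probes turned with normexp correction, which here adds an offset of 50 to every spot before scaling. Without it the 75th percentile was 24.7 to 32.7 on BZXD and 91.1 to 118 on CIA arrays. The level of a dim probe under normexp thus also reflects array brightness. How much of the turn comes from the offset was not tested. With normexp correction, 3318 ASRNV probes were called and 73.9% of them were higher in BZXD, near the 76.5% of all called probes. Under quantile normalization 21.5% of the called ASRNV probes were higher, against 38.5% over all called probes. Scaling to the median gave 26.1% against 45.0%, and the deposited values 20.5% against 34.3%. Without the filter on dim probes the shares were 34.2% and 45.3%. ASRNV probes thus had a lower share of rises than the array under each of these settings, by little under normexp.

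The median difference, BZXD minus CIA, was -0.51 over the ASRNV probes, 0.09 over the paired AP probes and -0.19 over all probes. The ASRNV median was -0.40 without BZXD replicate 2. Among probes detected on all 12 arrays it was -0.38 for ASRNV, 0.18 for the paired AP probes and 0.13 over all probes, and without BZXD replicate 2 it was -0.35 for ASRNV and 0.21 for the paired AP probes. The ASRNV median over all members rose to 0.62 under normexp, where the median over all probes was also 0.61. Among probes detected on all 12 arrays, ASRNV minus paired AP was -0.57, and it was -0.36 under normexp, -0.58 under quantile normalization and -0.61 in the deposited value table. This gap kept its sign under each of the settings tried.

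The difference varied with the Control level of the probe. Over all probes of a band, the median of BZXD minus CIA was 0.93 for ASRNV and 1.43 for paired AP probes in the lowest band, -0.74 and -0.25 in the second, -1.41 and -0.76 in the third, and -1.15 and -0.49 in the brightest. The medians of the lower 3 bands rest mostly on values undetected in BZXD. Among probes detected on all 12 arrays the sign turned in the second band, to 2.08 over 12 ASRNV and 2.48 over 30 paired AP probes, and in the next, to 0.87 over 242 and 1.02 over 390. In the brightest band it was -0.83 over 985 ASRNV and -0.26 over 1047 paired AP probes. Probes dim in Control that were detected on every BZXD array were necessarily bright enough there, so the medians of these bands are set in part by that condition. The ASRNV median lay below the paired AP median in each case.

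The size of the BZXD differences is given as counts of called probes, with no test between the sets. Of the 3978 tested ASRNV probes, 478 were higher and 2007 (50.5%) lower by more than 1 log2 unit, against 22.8% and 38.4% of all tested probes and 27.6% and 33.1% of the paired AP probes. By more than 4 log2 units 102 (2.56%) were higher and 37 (0.93%) lower, against 6.33% and 0.86% of all tested probes and 9.28% and 0.73% of the paired AP probes. These counts include probes that passed the filter through BZXD alone and differences from undetected values. Among probes detected on all 12 arrays, 269 ASRNV probes (21.7%) were higher and 427 (34.5%) lower by more than 1, against 30.7% and 24.0% of all such probes. There, 31 (2.50%) were higher by more than 4, against 3.08% of all such probes and 2.18% of the paired AP probes, so the order of ASRNV and paired AP turned for the largest rises. Without BZXD replicate 2, 126 of 3976 tested ASRNV and 371 of 4255 tested paired AP probes were higher by more than 4. These counts again include differences from undetected values. The same counts over all probes, and over probes detected on all 12 arrays, were not computed.

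The largest rise in BZXD with detection on all arrays was that of ASRNV20030476V3. Its scaled log2 level was 1.60, 1.55, 1.08 and 1.33 in Control, 1.92, 2.14, 1.52 and 2.06 in CIA, and 9.62, 6.28, 9.02 and 9.26 in BZXD. Each BZXD array was above every other array, and replicate 2 was the lowest of them. BZXD minus CIA was 6.64 ± 0.67 (SE), 99.5-fold, with an adjusted p of 4.04e-05 (limma), and 7.39 ± 0.21 (SE) without replicate 2. In raw intensity it went from 260.5 to 519.7 in CIA to 2549 to 19432 in BZXD.

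The second largest rise was that of ASRNV20028395V3. Its scaled log2 level was 0.98, 0.54, 0.76 and 0.69 in Control, 1.12, 0.72, 1.14 and 1.07 in CIA, and 8.96, 3.50, 8.63 and 8.78 in BZXD. The 4 BZXD arrays were all higher than the others, and replicate 2 lay far below the rest of its group. BZXD minus CIA was 6.46 ± 1.13 (SE), 87.8-fold, with an adjusted p of 0.000937 (limma), and 7.78 ± 0.16 (SE) without replicate 2. CIA and Control did not differ past the threshold for either probe (adjusted p = 0.0894 and 0.215, limma).

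The largest falls in BZXD with detection on all arrays were those of ASRNV20031015V3 and ASRNV20027314V3. The first was at 3.83, 4.15, 3.95 and 4.18 in Control, at 3.71, 4.05, 3.92 and 4.08 in CIA and at -0.10, -1.15, -0.82 and -0.57 in BZXD. Its BZXD arrays were far below the others, while Control and CIA overlapped. BZXD minus CIA was -4.60 ± 0.25 (SE), so that CIA was 24.3-fold higher, with an adjusted p of 2.46e-06 (limma).

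The second was at 1.96, 2.24, 1.77 and 2.06 in Control, at 2.30, 2.89, 2.53 and 2.97 in CIA and at -1.42, -1.62, -2.47 and -1.59 in BZXD. BZXD minus CIA was -4.45 ± 0.28 (SE), so that CIA was 21.8-fold higher, with an adjusted p of 4.08e-06 (limma). CIA was above Control by 0.66 ± 0.17 (SE), which missed the threshold (adjusted p = 0.0502, limma). The BZXD falls of both probes were called in all 21 alternatives tried for each. Without BZXD replicate 2 they were -4.44 ± 0.20 and -4.50 ± 0.29 (SE), in the same order.

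Against Control, which is a comparison with the same BZXD arrays, the values of the ASRNV probes were similar in size. Of 3978 tested, 2912 passed limma's test, 566 higher and 2346 lower in BZXD, or 73.2%, against 72.7% of all tested probes. Higher were 14.2%, against 25.4% over all tested probes, and lower were 59.0%, against 47.3%. Without BZXD replicate 2 there were 807 higher and 2469 lower of 3976, against 9620 and 15976 of all 31236 tested probes. The groups did not overlap for 66.3% of tested ASRNV probes, against 65.2% over all tested probes. The median difference was -0.66 over ASRNV and -0.05 over paired AP probes, and among probes detected on all 12 arrays it was -0.36 and 0.20. Over all members it turned to 0.36 under normexp, where 72.2% of the called ASRNV and 74.2% of all called probes were higher, and it was -0.0047 in the deposited value table. Because the 2 BZXD comparisons share their BZXD arrays, they are not independent.

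ASRNV probes with neighbouring numbers in their names had little likeness in level, and the upper and lower rows of the array were alike. For 3407 pairs of probes with neighbouring numbers, the correlation of their Control levels was 0.054, that of BZXD minus CIA was 0.039 over 3395 pairs, and that of CIA minus Control was 0.029. These are descriptions over probes that share arrays. When the numbers were cut into 12 consecutive blocks, the mean share detected over the 12 arrays ranged from 51.9% to 61.2%. The block medians ranged from -0.78 to -0.16 for BZXD minus CIA and from -2.87 to -2.28 for the Control level. Probes in the upper and lower rows of the array were detected at 57.0% and 57.8%, and their medians of BZXD minus CIA were -0.50 and -0.52.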

How the data were processed

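Levels were read from 12 arrays of 1 colour, 4 in each of 3 groups, grouped by the sample titles. Per the file headers and the submitters' processing notes, the authors quantified the scans with Agilent Feature Extraction 11.0.1.1, whose deposited intensity is background-subtracted. A value table, deposited as log2 for 38620 probes, served only as an alternative, since its centring and floor are unstated. Detection was taken from the deposited well-above-background flag, an other kind of value, 0 or 1 per spot.

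Intensities were converted to log2, spots marked as outliers were left out, and each array's 75th percentile over non-control probes was subtracted. Probes well above background on at least 4 of 12 arrays were tested with limma 3.58.1 in R 4.3.3 (lmFit and eBayes, two-sided, 8 arrays per comparison, Benjamini-Hochberg adjustment over all tested probes, threshold 0.05). Fits of 8 arrays were used because the BZXD arrays vary more than the others, and a fit of all 12 was an alternative. The scripts were tested on simulated data. Each ASRNV probe was paired without replacement with the AP probe nearest in Control mean. For a probe undetected in BZXD, the fold is the other group's mean over the mean dimmest detected level of the BZXD arrays. The number of arrays limits the precision.

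Probes named in the text are the 2 largest rises and 2 largest falls of CIA against Control and of BZXD against CIA among called probes with non-overlapping groups, preferring detection on all 8 arrays. The members and lists were chosen with earlier results of these data known. Alternatives were other background corrections, normalizations, filters, thresholds, pairings, arrays left out and a block of replicate number. Normexp used the median spot signal and an offset of 50. Replicate numbers were checked for pairing: same-numbered arrays correlated in their deviations at 0.08 to 0.57 for CIA and Control, -0.08 to 0.30 for BZXD and CIA and -0.13 to 0.13 for BZXD and Control, so the numbers were not taken to pair the samples. Dates and sequences of the probes were not used here.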

Additional observations from a re-analysis of the deposited data

Results flagged for a closer look

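Of 45 groups of 4 arrays examined for a single array far from the other 3, 5 passed Dixon's 95% critical value. The ratio is the gap of the extreme array to its nearest neighbour over the whole range, and chance passes about 1 in 20 groups. Of the 5, 3 are BZXD replicate 2.

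The ASRNV minus paired AP share detected in BZXD was -19.5 percentage points on replicate 2 against -12.4 to -11.3 on the others (ratio 0.8601). ASRNV20028395V3 was at 3.50 on BZXD replicate 2 against 8.63 to 8.96 on the others (ratio 0.9391), on the scaled log2 axis. ASRNV20029936V3 was at -0.27 on BZXD replicate 2 against -4.53 to -4.11 on the others (ratio 0.9006). ASRNV20027814V3 was at -3.01 on BZXD replicate 1 against -5.12 to -4.87 on the others (ratio 0.8836), and none of these 4 values was well above background. ASRNV20028395V3 was at 0.72 on CIA replicate 2 against 1.07 to 1.14 on the others (ratio 0.8347).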

How the results depend on the processing

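Counts of ASRNV calls in CIA against Control moved most: 0 in 1 fit of all 12 arrays (504 at an unadjusted p under 0.05, limma), 90 in that fit without BZXD replicate 2, 2324 with normexp, 159 with scaling to the median, 141 with probes detected on all 12 arrays, 241 with scaling to the median of those probes only, 8 at an adjusted p under 0.01, and 7 to 249 when 1 array was left out. The BZXD against CIA count was 851 with probes detected on all 12 arrays, and 851 with scaling to the median of those probes only. The BZXD against Control count was 872 and 854 in the same settings, where fewer probes were tested. When 1 array was left out, BZXD against CIA ranged from 2535 to 3105 and BZXD against Control from 2680 to 3276. Of called probes, 72.2% were higher in BZXD than in Control with normexp, against 19.4%, 30.4% without a filter and 40.3% with probes detected everywhere.

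Median ASRNV differences over all members moved with the background correction and scaling. CIA minus Control was -0.26 with normexp, 0.023 with quantile normalization and 0.026 with scaling to the median. BZXD minus CIA was 0.62 with normexp, -0.16 with scaling to the median and -0.050 in the deposited table. BZXD minus Control was 0.36 with normexp, -0.40 with quantile normalization, -0.20 with scaling to the median and -0.0047 in the deposited table. ASRNV minus paired AP in CIA minus Control was 0.015 with normexp and 0.0014 in the deposited table. In BZXD minus CIA it was -0.073 and -0.29, and in BZXD minus Control -0.048 and -0.26. The cause was not tested.

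Under the positive-and-significant flag, 89.1% of ASRNV probes were detected in Control, 89.1% in CIA and 58.2% in BZXD, and a fixed intensity gave 78.2% in CIA. The median SD under normexp was 0.081, 0.111 and 0.079 in Control, CIA and BZXD, an order that puts BZXD lowest, and with 1 array left out the SD was 0.197 to 0.253, 0.234 to 0.277 and 0.364 to 0.558. For Control replicates 3 and 4, ASRNV minus paired AP detection was -1.06 points matched on Control replicates 1 and 2, 3.07 matched on all 12 arrays and -9.01 against all AP probes. In CIA it was -0.39, 4.14 and -7.87. In BZXD it was -7.76 matched on all 12 arrays and -20.0 against all AP probes, and -14.7 to -11.9 with 1 array left out. The restriction of kept and lost probes to those with usable spots was chosen after seeing the data, and without it 876 of 2915 ASRNV probes (30.1%) were marked as detected on no BZXD array, 11 of them with no usable BZXD spot. Spots near background limit every value of dim probes.

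With the replicate block, calls were 248, 2762 and 2814 in CIA against Control, BZXD against CIA and BZXD against Control. The block ended the CIA calls of ASRNV20029936V3, ASRNV20027814V3 and ASRNV20027382V3 (adjusted p = 0.0523, 0.0975 and 0.0728, limma). Replicate number is also the array's position in its scan on 12 of 12 arrays. Own-number arrays correlated best for 1, 2 and 1 of 4. A scan block could not be fitted because each scan holds 1 group. Of 195 alternative values of counts, medians, shares and SDs, 146 stayed near the main value. Near means within a set factor for counts of calls and median SDs, and within the SD between arrays for the rest. The direction of calls was not part of that rule, and with normexp most calls of both BZXD comparisons turned to higher at a similar count.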
